A study of Mus musculus with 8 samples.

Results

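Fragments of the transfer RNA Arg-CCG-2, an arginine tRNA of the mouse that is encoded by a single gene, were followed in islet cells with and without inflammatory cytokines. The members are the 22 tRNA-derived fragments (tRFs), out of 112 in the authors' deposited tables, whose sequence matches Arg-CCG-2 and not its near-identical relative Arg-CCG-1. The tables list tRFs that differed between control and cytokine libraries, 29 as higher and 83 as lower. Of the 22 members, 21 were listed as lower and 1 as higher with cytokines. The number of tRFs tested was inferred here as 31661, from the p-values and false discovery rates (FDR) of the authors' edgeR test. This value came from 85 of the 112 listed tRFs. On it, 0.262% of the tested tRFs were listed as lower and 0.0916% as higher. The members were thus chosen by the authors' tests of this same comparison, so its levels and fold changes are given as a description and no test of them is made. Largest among the members was an edgeR FDR of 0.0440 for positions 45 to 76, and the largest among all listed tRFs was 0.0489. All listed values thus lie below 0.05. In the authors' DESeq test the largest adjusted p-value among the members was 0.0486, also below 0.05. Log2 fold changes of listed tRFs came no nearer to 0 than -1.48 and 1.80, and whether the listing also used a fold cut-off was not established here. Fold changes below such a cut-off would be missing. Any tRFs that were not listed were not analysed here.

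A tRNA-Arg with a CCG anticodon carries arginine to the ribosome and reads the codon CGG. The tRNA gene does not encode the last bases of the molecule, CCA. An enzyme adds this tail after the transcript is trimmed, and the amino acid is attached to its final adenosine. Cleavage of a tRNA, in the anticodon loop or in other loops, leaves fragments that are named by the end they keep. A 3′ fragment keeps the 3′ end of the tRNA and an internal fragment keeps neither end. The deposited tables class such fragments as 3-tRF or 3-tRH and as i-tRF.

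The cells were dissociated from pancreatic islets, the cell clusters that secrete insulin and glucagon, which the labels describe as mainly beta and alpha cells. Both groups came from 12-week-old C57BL/6NRj mice and were kept in culture for 24 h after dissociation. The 4 control libraries were untreated, and the 4 cytokine libraries came from cells given a mix of 3 cytokines over 24 h, with IFN-γ at 30 ng/mL, TNF-α at 10 ng/mL and IL-1β at 0.1 ng/mL. The question was how such cytokines, which the series' design links to immune cells entering the islet in type 1 diabetes, bear on tRF levels. Whether the libraries of a group come from separate animals or cultures is not in the labels, so the spread between them may be technical. The cells of each library were measured in bulk, so fewer cells of a type and less fragment RNA per cell cannot be told apart. The tables hold only tRFs, so no marker of a cell type could be checked.

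The files place Arg-CCG-2 on chromosome 17. The RefSeq annotation of build GRCm38.p6 has 1 arginine CCG tRNA gene on that chromosome, n-TRccg2, at chr17:23550263-23550335, which was matched here by chromosome and anticodon. It spans 73 bases, so positions 74 to 76 of the fragments are the added tail. No GENCODE gene overlaps it, and another arginine tRNA gene, n-TRcct2, lies at chr17:23548768-23548840. The fragments below are those on which the results turn. They are the longest fragment with the tail, the only fragment listed as higher, its partner with the same start and the tail (chosen after its values were seen), the most abundant fragment that ends elsewhere, and the fragment of Arg-CCG-1 that corresponds to the one listed as higher. Capitals mark position 50 and, where present, the bases of the CCA tail, with positions counted from the 5′ end of the tRNA as in the deposited tables.
Arg-CCG-2, positions 28 to 76: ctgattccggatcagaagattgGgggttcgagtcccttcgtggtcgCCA
Arg-CCG-2, positions 42 to 73: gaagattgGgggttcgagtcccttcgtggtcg
Arg-CCG-2, positions 42 to 76: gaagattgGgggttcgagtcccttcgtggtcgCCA
Arg-CCG-2, positions 34 to 54: ccggatcagaagattgGgggt
Arg-CCG-1 and Arg-TCG-2, positions 42 to 73: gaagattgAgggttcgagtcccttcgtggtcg
Over the 49 positions from 28 to 76 that the listed fragments of both tRNAs cover, Arg-CCG-2 and Arg-CCG-1 differ by 1 base, G50A (Arg-CCG-2 first). All 22 members cover position 50, and each matches 1 gene. In the standard cloverleaf numbering this base lies in the T stem, opposite position 64, where Arg-CCG-2 has a G and T wobble pair and Arg-CCG-1 an A and T pair.

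The fragments fell into 4 groups by their last position. The CCA tail ended 17 of them, position 54 (the first base of the T loop) ended 3, and positions 73 and 74 ended 1 each. The 17 tailed fragments began at 17 of the 23 positions from 28 to 50, and 6 starts in that span were not listed. The authors class 14 of the 17 as 3-tRFs and 3, with starts at positions 33 to 35, as 3-tRHs. Members were 20 to 49 nt long. At the edge of the rule, positions 50 to 76 were a member, with a level (mean ± SD of 4 libraries) of 71.3 ± 23.8 CPM in controls and 10.5 ± 3.64 CPM under cytokines. CPM is the read count per 1e6 reads of the effective library size. Positions 52 to 76, which no longer cover the distinguishing base and match 3 genes, were outside it at 69.0 ± 21.8 and 16.2 ± 4.72 CPM.

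**Figure D1:**
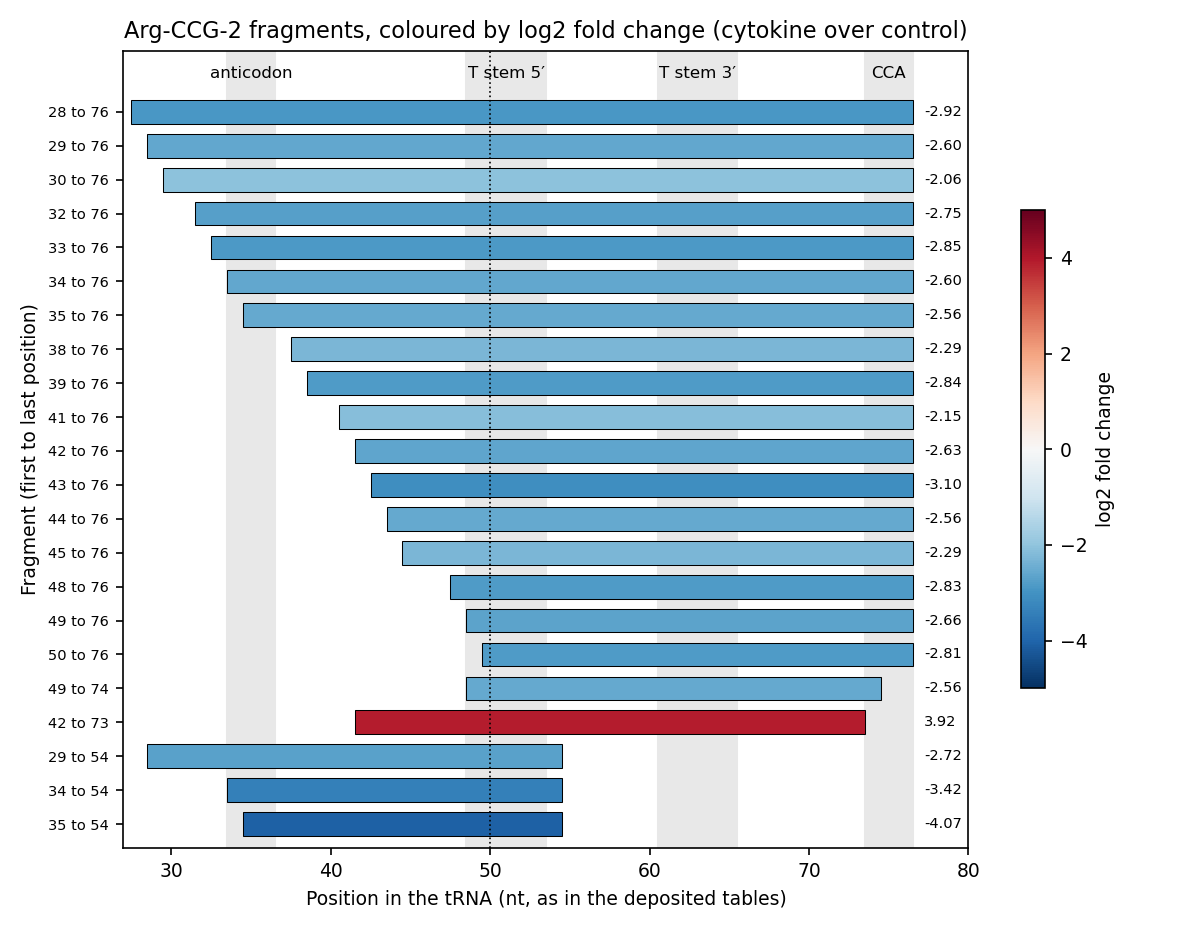
Each bar is 1 of the 22 Arg-CCG-2 fragments, drawn from its first to its last position in the tRNA (x axis, nt) and coloured by its log2 fold change of cytokine over control, which is printed at the right. Grey bands mark the anticodon, both strands of the T stem and the CCA tail, and the dotted line marks position 50. The fragment of positions 42 to 73 (3.92) is the only one above 0, and the 2 lowest values, -3.42 and -4.07, belong to fragments that end at position 54.

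Effective library sizes ran from 372260 to 791365 reads in controls and from 367454 to 939108 reads with cytokines, so these sizes overlapped between the groups. They were fitted and need not equal sequencing depth. The members took 652 to 1263 reads of each control library and 111 to 240 of each cytokine library. As a share of all listed reads this was 7.80% to 13.3% in controls and 2.16% to 4.89% with cytokines. Nearly all members were listed as lower, so the direction of this share is partly set by the listing. The level that 3 reads stand for was 3.19 to 8.16 CPM per library, and intervals and floors given here cover counting error only.

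The only member higher with cytokines was the fragment of positions 42 to 73, which begins in the anticodon stem and stops at the last base before the CCA tail. Control replicates 1 to 4 held 3, 0, 4 and 1 reads of it, and cytokine replicates 1 to 4 held 24, 15, 46 and 39. Scaled to library size these were 4.50, 0, 10.7 and 1.52 CPM in controls and 65.3, 32.3, 80.6 and 41.5 CPM with cytokines. Every cytokine library was above every control library, and control replicate 2, with 0 reads, allows a level of up to 3.79 CPM. Its mean level was 4.19 ± 4.75 CPM in controls and 54.9 ± 22.1 CPM under cytokines (SD, n = 4 each). The log2 fold change fitted by edgeR was 3.92 ± 0.66 (SE), which was 4.70 without control replicate 3, the control library with the most reads of it. The median over the 29 tRFs listed as higher was 3.11.

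The 17 fragments that end in the CCA tail were all lower with cytokines. The most abundant of them in controls were those of positions 29 to 76, 44 to 76 and 49 to 76. Positions 29 to 76, which hold the whole anticodon loop, stood at 78.0, 68.2, 153 and 188 CPM in control replicates 1 to 4 and at 16.3, 23.7, 26.3 and 13.8 CPM in cytokine replicates 1 to 4. Control replicates 3 and 4 were the high ones, and the groups did not overlap. The log2 fold change was -2.60 ± 0.46 (SE).

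Positions 44 to 76 begin at the first base of the variable loop. They stood at 91.6, 126, 134 and 118 CPM in controls and at 35.4, 17.2, 15.8 and 13.8 CPM with cytokines, a log2 fold change of -2.56 ± 0.44 (SE). Cytokine replicate 1 was the highest of its group here, and still below every control. Positions 49 to 76 begin with the T stem. Their levels were 67.5, 102, 169 and 102 CPM in controls and 24.5, 8.61, 26.3 and 10.6 CPM with cytokines, a log2 fold change of -2.66 ± 0.47 (SE). Control replicate 3 was the highest and the groups again did not overlap.

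The other 14 tailed fragments were lower as well. Over all 17, mean levels were 32.8 to 122 CPM in controls and 4.53 to 22.6 CPM with cytokines, and log2 fold changes ran from -3.10 (positions 43 to 76) to -2.06 (positions 30 to 76), with a median of -2.63. The SE of a single fragment was 0.44 to 0.63. The median over all 83 tRFs listed as lower was -2.60, and over the 21 members listed as lower it was -2.66. TMM factors or DESeq2 size factors taken from the listed tRFs shift the log2 fold changes of all listed tRFs by a median of 1.84 and 1.95. With them, the 21 members had medians of -0.80 and -0.71, and 0 of the 21 were above 0. The highest of the 21 was then at -0.12 and -0.03, which is close to no change.

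Summed over the 17, the tailed fragments stood at 929, 1302, 1539 and 1700 CPM in control replicates 1 to 4 and at 272, 196, 237 and 201 CPM in cytokine replicates 1 to 4. The mean of the sum was 6.04-fold lower, at 226 ± 35.4 CPM against 1368 ± 335 CPM in controls (SD, n = 4 each). The direction of this sum follows from the listing of its members.

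The shares of tailed reads by start differed less between the groups than between libraries of a group. Starts before the anticodon (positions 28 to 33) made up 29.8% of the pooled tailed reads in controls and 30.7% with cytokines. Starts within the anticodon gave 10.2% and 10.1%, and starts between the anticodon and the variable loop gave 23.4% and 23.7%. The variable loop gave 23.4% and 23.9% and the T stem 13.1% and 11.7%. Single libraries ranged more widely than these pooled values differ, for example from 23.3% to 38.1% in controls and from 21.0% to 35.2% with cytokines for starts before the anticodon. The mean length of tailed reads was 36.7 to 39.2 nt in control libraries and 36.4 to 39.2 nt in cytokine libraries, so these ranges overlap.

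**Figure D2:**
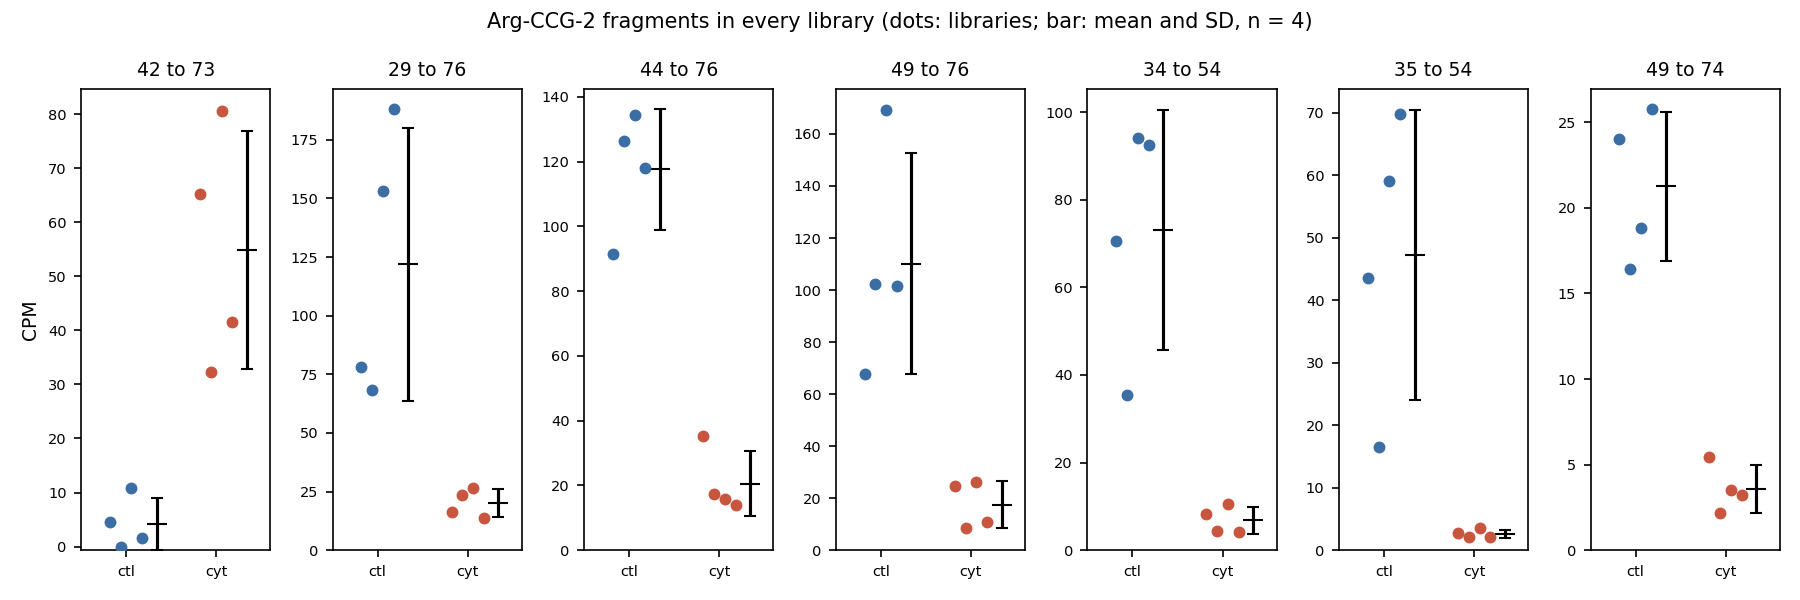
Levels (y axis, CPM, a separate linear scale per panel) of 7 Arg-CCG-2 fragments in the 4 control (ctl, blue) and 4 cytokine (cyt, red) libraries. Dots are libraries, and black bars give the mean and SD. In the first panel, positions 42 to 73, all cytokine libraries lie above all controls (mean 54.9 against 4.19 CPM), and in the other 6 panels all lie below.

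Fragments that end at position 54, inside the T loop, keep the anticodon side and lack the tail. Positions 34 to 54, which begin with the first base of the anticodon, stood at 70.5, 35.4, 94.0 and 92.4 CPM in controls and at 8.16, 4.30, 10.5 and 4.26 CPM with cytokines, a log2 fold change of -3.42 ± 0.53 (SE). Positions 35 to 54 stood at 43.5, 16.4, 59.1 and 69.7 CPM in controls and at 2.72, 2.15, 3.51 and 2.13 CPM with cytokines, where each library held 1 or 2 reads. The log2 fold change was -4.07 ± 0.64 (SE), the lowest among the members. In both fragments control replicate 2 was the lowest control and still above all cytokine libraries.

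The third fragment of this kind, positions 29 to 54, had 11, 11, 11 and 16 reads in controls and 0, 1, 3 and 3 reads with cytokines, a log2 fold change of -2.72 ± 0.62 (SE). The 0 reads in cytokine replicate 1 allow a level of up to 8.16 CPM there. One further fragment, positions 49 to 74, ends with the first base of the tail and is classed as a 3-tRF by the authors. Its levels were 24.0, 16.4, 18.8 and 25.8 CPM in controls and 5.44, 2.15, 3.51 and 3.19 CPM with cytokines, a log2 fold change of -2.56 ± 0.57 (SE), near that of the tailed fragments. In all 22 members control and cytokine levels were without overlap, as in 96.6% of the tRFs listed as higher and 98.8% of those listed as lower.

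Because several fragments share a start and differ only in where they end, their reads can be compared inside each library, where no library size enters. For the start at position 42, the end before the tail and the end with the tail were both listed. Positions 42 to 76 had 44, 88, 27 and 54 reads in controls and 7, 6, 7 and 10 with cytokines. Of the reads of both listed ends, the end at position 73 therefore took 8 of 221 in the controls (3.62%, exact 95% interval 1.58% to 7.01%). With cytokines it took 124 of 154 (80.5%, 73.4% to 86.5%). Reads with this start and any other end were not listed and are not counted. By library the share was 6.38% (1.34% to 17.5%), 0% (0% to 4.11%, 0 of 88 reads), 12.9% (3.63% to 29.8%) and 1.82% (0.0460% to 9.72%) in control replicates 1 to 4. It was 77.4% (58.9% to 90.4%), 71.4% (47.8% to 88.7%), 86.8% (74.7% to 94.5%) and 79.6% (65.7% to 89.8%) in cytokine replicates 1 to 4. The end at position 73 was listed as higher and the end with the tail as lower, so the direction of this share is set by the listing and its separation is no support for it.

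Set against all 17 tailed fragments, the fragment ending at position 73 had 0.00485, 0, 0.00698 and 0.000891 reads per tailed read in the controls and 0.240, 0.165, 0.341 and 0.206 with cytokines. Over pooled reads these ratios were 8 to 3344 and 124 to 515, a log2 difference of 6.65, or 7.38 without control replicate 3. One fragment of this ratio was listed as higher and the rest as lower, so its direction too is set by the listing.

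**Figure D3:**
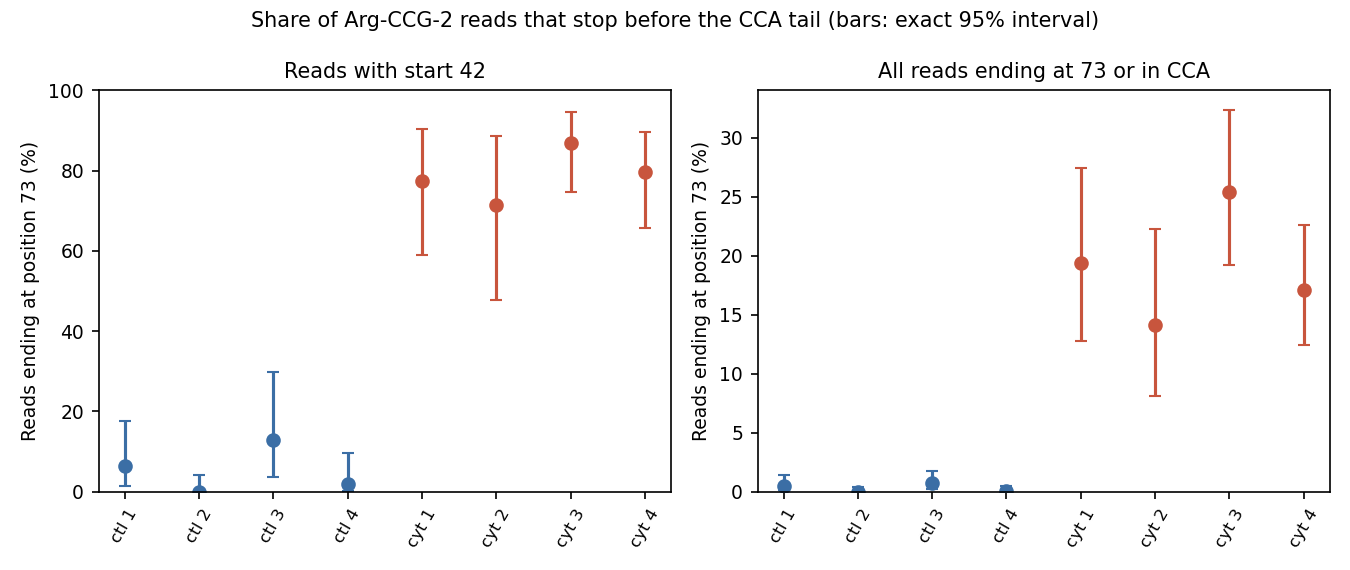
Share of Arg-CCG-2 reads ending at position 73 (y axis, %) in each of the 8 libraries, with exact 95% intervals. The left panel is over the listed reads starting at position 42 and the right panel over all listed reads ending at 73 or in the CCA tail. With start 42 the cytokine libraries lie at 71.4% or more and the controls at 12.9% or less.

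The other same-start pairs were lower at both ends, and their shares are again over the listed reads of each pair. For the start at position 49, the end at position 74 took 53 of 309 reads in controls (17.2%, exact 95% interval 13.1% to 21.8%) and 8 of 46 with cytokines (17.4%, 7.82% to 31.4%). For the start at position 29, the end at position 54 took 49 of 336 (14.6%, 10.99% to 18.8%) and 7 of 52 (13.5%, 5.59% to 25.8%). For the start at position 34 it took 171 of 327 (52.3%, 46.7% to 57.8%) and 15 of 38 (39.5%, 24.0% to 56.6%). For the start at position 35 it took 110 of 296 (37.2%, 31.6% to 42.9%) and 6 of 35 (17.1%, 6.56% to 33.6%). For these 4 starts the counting intervals of the pooled shares overlapped between groups, and the cytokine counts are too small to resolve moderate shifts. Pooling leaves out the spread between libraries, so these intervals do not measure a difference between groups. For the start at position 35, single libraries ran from 18.6% to 59.5% in controls and from 11.1% to 66.7% (2 of 3 reads) with cytokines.

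Arg-CCG-1 offers a comparison at equal positions, since its fragments differ from those of Arg-CCG-2 by a single base. Of the 17 listed fragments that match Arg-CCG-1 and not Arg-CCG-2, 15 have an Arg-CCG-2 counterpart of the same start and end. The remaining members, among them positions 42 to 76, have no listed counterpart. The pairs thus cover only positions at which both sequences were listed. Fragments that begin at position 35 or later no longer contain the first anticodon base, and their Arg-CCG-1 sequence also matches Arg-TCG-2, the arginine tRNA gene that the files place on chromosome 11. Both sets were listed from the same libraries, so the values stand side by side without a test.

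In 6 pairs the counterpart is Arg-CCG-1 alone (starts at positions 28 to 34). In the 5 tailed ones Arg-CCG-2 had 1065 reads to 1056 of Arg-CCG-1 in controls and 169 to 141 with cytokines. The read ratio was 0.857, 1.21, 0.969 and 0.996 in control replicates 1 to 4 and 1.04, 1.57, 1.43 and 0.983 in cytokine replicates 1 to 4, so the groups overlapped. Median log2 fold changes were -2.60 for Arg-CCG-2 and -2.85 for Arg-CCG-1, and 2 of the 5 Arg-CCG-2 fragments had the more negative value. The pair without the tail, positions 34 to 54, had more reads of Arg-CCG-2, with 171 to 78 in controls (a ratio of 2.19) and 15 to 4 with cytokines (3.75). Its log2 fold changes were -3.42 ± 0.53 for Arg-CCG-2 and -4.17 ± 0.75 for Arg-CCG-1 (SE), and the intervals of 1 SE overlapped.

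For the 8 tailed pairs in which the counterpart is shared with Arg-TCG-2 (starts at positions 35 to 50), all 8 Arg-CCG-2 fragments had the more negative log2 fold change. Their range was -3.10 to -2.29, against -2.13 to -1.66 for the shared sequences. The read ratio of Arg-CCG-2 to the shared sequences was 0.347, 0.531, 0.306 and 0.345 in control replicates 1 to 4 and 0.275, 0.206, 0.215 and 0.186 in cytokine replicates 1 to 4. The highest cytokine ratio lay below the lowest control ratio, and the log2 difference over pooled reads was -0.85. Reads of the shared sequences cannot be divided between Arg-CCG-1 and Arg-TCG-2, so this is not a difference between Arg-CCG-2 and Arg-CCG-1 alone. The shared sequences were also the more abundant, with 4131 reads to 1589 in controls. A tRF with few reads needs a larger fold change to be listed. The parts of this and of Arg-TCG-2 in the difference were not tested.

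The contrast was widest at positions 43 to 76, where the log2 fold change was -3.10 ± 0.50 (SE) for Arg-CCG-2 and -1.66 ± 0.40 (SE) for the shared sequence. It was narrowest at positions 45 to 76, with -2.29 ± 0.50 and -2.13 ± 0.39 (SE). These SEs are of single fragments and come from a model of listed tRFs only, so they may be too small. With them, the intervals of 1 SE did not overlap for 3 of the 8 pairs. At positions 42 to 73, without the tail, the shared counterpart went from 16 to 265 pooled reads while Arg-CCG-2 went from 8 to 124, a ratio of 0.5 in controls and 0.468 with cytokines, and the log2 fold changes were 3.92 ± 0.66 and 3.86 ± 0.58 (SE). A further fragment ending at position 73, positions 39 to 73 of Arg-CCG-1 and Arg-TCG-2, was listed as higher (log2 fold change 2.58), and no Arg-CCG-2 fragment of these positions was listed.

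**Figure D4:**
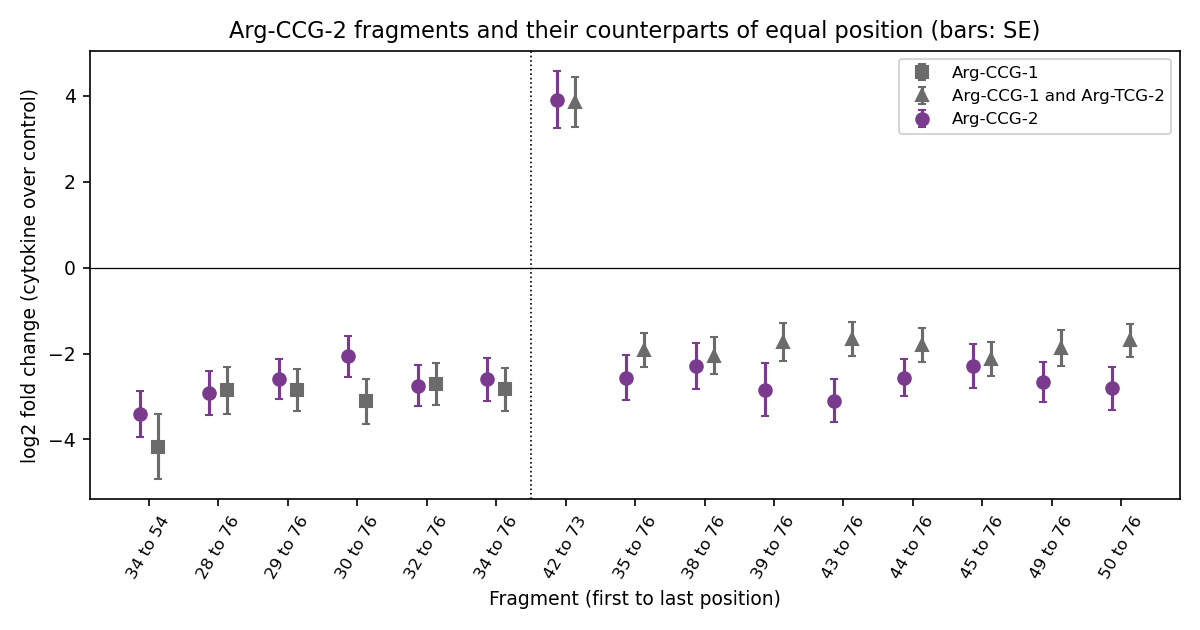
Log2 fold change of cytokine over control (y axis) with its SE for Arg-CCG-2 fragments (purple circles) and the fragments of equal position (x axis) that match Arg-CCG-1 alone (grey squares, left of the dotted line) or Arg-CCG-1 and Arg-TCG-2 (grey triangles, right of it). The 8 tailed triangles lie at -2.13 to -1.66, above the Arg-CCG-2 circles beside them, while at positions 42 to 73 they lie at 3.92 (circle) and 3.86.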

How the data were processed

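RNA of 8 libraries was pretreated with a kit for tRFs and sequenced as small RNA, per the labels' protocols. Per the submitters' processing notes, Bowtie 1 and build GRCm38.p6 were used, and the sources used here give no counting steps. The authors deposited raw read counts per tRF sequence. Their deposited TPM values are not scaled between libraries and were not used. The deposited tables also give log2 fold changes and mean log2 CPM (edgeR) and p-values with FDR, and per the file headers a DESeq base mean (a signal of scaled counts) and test score.

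Library sizes are those that return the authors' mean log2 CPM in edgeR 4.0.16 (prior count 2, fitted dispersion 0.246). With them, edgeR's quasi-likelihood model of all 112 tRFs gave log2 fold changes within 0.0737 of the authors'. The SE was taken as the log2 fold change over the root of F. The spread in this model was estimated from listed tRFs only, so all SEs given here may be too small. The authors' DESeq SE, from another model, was larger for every member. For positions 35 to 54 it was 0.83, against 0.64 here, and for positions 44 to 76 it was 0.46, against 0.44. The recovery of library sizes and of fold changes was tested on simulated data in which most tRFs did not change. All tRFs here were listed for differing, so the simulation does not check the SEs or the effect of the listing. The chi-square test over listed tRFs separated all 12 pairs of libraries within a group (largest p = 2.62e-10), so no pair was merged as a repeat deposit. Repeat preparations of one sample would also be separated by it, so it does not show that the libraries are biological replicates. Shares of reads have exact (Clopper-Pearson) 95% intervals. The sources used here do not give whether molecular identifiers were collapsed, and intervals cover counting error only.

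Values in every library were given for each member listed as higher and, among those listed as lower, for the 3 most abundant in controls per end class (CCA tail, position 73, other). The members, lists and rules were chosen with earlier results of these data known. Alternatives were other library sizes (the authors' DESeq size factors, listed totals, TMM, DESeq2 1.42.0), a minimum of 50 reads, a replicate block and leaving out each library. The comparison with Arg-CCG-1 had its alternatives added after seeing the data.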

Additional observations from a re-analysis of the deposited data

Results flagged for a closer look

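One value stood far from the others of its group. Positions 44 to 76 of Arg-CCG-2 were at 35.4 CPM in cytokine replicate 1, with the other 3 cytokine libraries at 13.8 to 17.2 CPM. The gap took 0.844 of the group's range, above Dixon's 95% limit for 4 samples. Chance flags about 1 in 20 groups, and 24 groups were looked at.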

How the results depend on the processing

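No direction reversed under any of 165 alternatives for the fold changes of 7 fragments, the 3 sums by end and the read ratios, and 140 stayed within the spread between replicates. For the fragments, the sums and the ratio of ends at 73 to tailed ends, the listing set the direction. An unchanged direction there is therefore no support for it. The log2 difference of the summed tailed fragments (-2.59) was -1.83 with listed totals as library sizes, -0.66 with TMM factors and -0.59 with the size factors of DESeq2, both over the listed tRFs. For fragments ending at position 54 or 74 (-3.38) these were -2.66, -1.47 and -1.37. For the fragment ending at position 73 (3.71) TMM and DESeq2 factors gave 5.62 and 5.74. Those factors set the typical listed tRF, which was listed as lower, to no change. Leaving out 1 library gave -2.74 to -2.47 for the tailed sum, -3.61 to -3.22 for ends at 54 or 74 and 3.30 to 4.78 for the end at 73. It gave 6.12 to 7.38 for the ratio of ends at 73 to tailed ends, -0.95 to -0.65 for the ratio to sequences shared with Arg-TCG-2, and 0.15 to 0.43 for that to Arg-CCG-1. With the replicate number as a block, fragment 42 to 73 had a log2 fold change of 3.93 and the 21 members listed as lower a median of -2.71. The numbers are not known to pair the libraries (correlations of same-numbered libraries -0.29, 0.17, 0.10 and 0.10), and 2 of the 4 controls correlated best with their own number. With at most 20 reads of any tailed fragment in a cytokine library, single-fragment differences are imprecise.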
